A study of Homo sapiens with 4 samples.

Results

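The annexins and flotillins are membrane-associated proteins that are often found on extracellular vesicles, the small membrane particles that cells release. The genes described here are ANXA1, ANXA2, ANXA3, ANXA4, ANXA5, ANXA6, ANXA7, ANXA11, FLOT1 and FLOT2. They were found by their gene name on the array, with every probe of that name kept. This gave 10 genes and 16 probes, of 43317 gene names and 58201 gene probes in all. The rule used names and no measured value, but the genes were chosen with earlier results of these data known.

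Annexins bind negatively charged phospholipids when calcium rises, through a core of repeated domains, and they serve in vesicle traffic, membrane repair and the bridging of membranes. Flotillins are scaffold proteins on the inner face of the plasma membrane and of endosomes, where FLOT1 and FLOT2 assemble with each other in lipid microdomains. Members of both families are common in the protein lists of vesicles from cancer cells, so their mRNA levels are of interest in a study of vesicle release.

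RNA was measured in HCT116, a colorectal cancer line, and A549, a lung cancer line, each transfected by means of the lipid reagent Dharmafect1 with either miR-891b or the negative control NC1. Each of the 4 combinations of line and transfected RNA had 1 array of total RNA, labelled with Cy3 from 100 ng. The series is titled for PSAT1, an enzyme of serine synthesis. No genotype change is named for either line, and the amount of RNA transfected and the time of harvest are not given in the sources used here.

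With 1 array per group, no difference within a line has a replicate check, and no p-value is given for one. A change is miR-891b minus NC1 in log2 units and is called by its size, at 2-fold (1 on the log2 scale) or more. Both arrays of a line shared a slide and a scan, so cell line and slide cannot be told apart, whereas the transfections were compared within a slide. A level is the log2 signal of a probe minus the 75th percentile of its array. The error given after ± is the error that the scanner software's own signal errors give for the difference (n = 1 array on each side), and it covers the spots and not the cultures. It was 0.20 or 0.21 for the brightest probe of every member in every comparison. Probes printed at 5 or more spots gave a smaller spread, with a median SD of a log2 difference of 0.061 in HCT116 and 0.071 in A549.

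The sequences that bear on the results are shown first, all in the 5′ to 3′ direction. The transfected microRNA and the 30 bases of an ANXA11 probe that hold a match to its seed carry the seed (bases 2 to 8) or its match in capitals. The microRNA is from RefSeq (GRCh38.p14, chrX:146001100-146001121, minus strand), and the ANXA11 bases lie at chr10:81916176-81916205 of hg19 on the minus strand.
hsa-miR-891b: uGCAACUUaccugagucauuga
ANXA11 probe bases with the seed match: gccttgccctcAAGTTGCttagggtggaag
The seed match, AAGTTGC on the sense strand, occurred in 1 of the 16 member probes and in 229 of all 58201 gene probes (0.393%). Its last 6 bases, AGTTGC, occurred in the same member probe and in 684 of all probes (1.18%). A probe covers 60 bases of a transcript, so the rest of each transcript was not searched.

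The probes of ANXA2, ANXA3 and ANXA6 are shown because these annexins differed in direction between the lines while their probes lay over the same stretch of the annexin core. Capitals mark bases that are identical in all 3 probes.
ANXA2 probe: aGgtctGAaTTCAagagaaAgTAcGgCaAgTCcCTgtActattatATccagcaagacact
ANXA3 probe: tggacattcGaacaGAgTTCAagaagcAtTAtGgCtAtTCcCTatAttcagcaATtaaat
ANXA6 probe: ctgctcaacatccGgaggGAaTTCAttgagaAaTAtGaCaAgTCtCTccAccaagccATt
Without gaps, 48 columns aligned in all 3 probes and 20 of them were identical. ANXA3 and ANXA6 shared 34 of 56 aligned bases (60.7%), ANXA2 and ANXA3 shared 29 of 52 (55.8%), and ANXA2 and ANXA6 shared 27 of 48 (56.3%). The probes are thus alike but far from identical, and whether a transcript of one annexin hybridised to the probe of another was not tested. The FLOT1 probe, which gave the largest change with miR-891b among the members, lies at chr6:30697832-30697891 of hg19 on the minus strand.
FLOT1 probe: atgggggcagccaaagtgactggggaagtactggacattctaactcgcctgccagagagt

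The 4 arrays had between 44.7% and 50.3% of gene probes well above background, and 0 gene spots were saturated. All 16 member probes, with 1 spot each, were well above background on all 4 arrays, so every member passed the filter on dim probes. Of the 6 marker genes fixed for A549, 5 were measured on both NC1 arrays, with A549 at least 2-fold above HCT116 for all 5. The 4 measured of 5 HCT116 markers were all at least 2-fold lower there, while LGALS4, the remaining one, was dim in HCT116 and at least 18.3-fold higher in A549. The summed processed signal of the A549 markers was 3711 and 3387 on the HCT116 NC1 and miR-891b arrays, against 236849 and 163366 on those of A549. One of them, AKR1B10, was higher with miR-891b in HCT116 by 4.47, and its part in the results was not tested. Of the 5 fibroblast markers, COL1A1 was well above background on all 4 arrays, LUM on those of A549, and COL1A2, COL3A1 and DCN on none. The leukocyte markers PTPRC and CD14 and the endothelial markers CDH5 and VWF exceeded background clearly on every array, and CD3E and PECAM1 did on none. Parts of the arrays showed stray signal, meaning that, of the nearby spots with no signal above background elsewhere, 10% or more stood well above it on that array. Such areas held 10.5% of gene spots on the HCT116 miR-891b array and 2.20% or less on the others, and the members they touched are named below.

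In A549, FLOT1 and ANXA4 were lower with miR-891b by 2-fold or more and ANXA6 was higher by 2-fold or more, which made 3 of 10 members past 2-fold. Over all 21337 genes measured in A549, 5.57% were at least 2-fold lower and 4.01% at least 2-fold higher, or 9.58% in either direction. The median change of the members was -0.16, beside -0.06 over all genes, whose SD was 0.61. Markers moved in the same comparison. All 6 A549 markers were below 0, 2 of them past 2-fold. Of the 5 HCT116 markers, 3 were below 0 and 2 above (median -0.36), while their summed signal went from 688 to 1083. Of the 2 fibroblast markers measured, LUM was higher by 2.14, from a signal of 153 to 668, and COL1A1 changed by -0.59. The part of these markers in the members' changes was not tested. In HCT116, 0 of 10 members passed 2-fold, where 2% of 19105 genes did (0.843% lower and 1.16% higher). The largest HCT116 changes were those of FLOT1, ANXA1 and ANXA3, all under 2-fold. The HCT116 median was -0.06 over members and -0.04 over all genes, with an SD over all genes of 0.38. A lower level in RNA from a whole culture can reflect fewer cells with the transcript or less of it per cell, which cannot be told apart here.

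**Figure D1:**
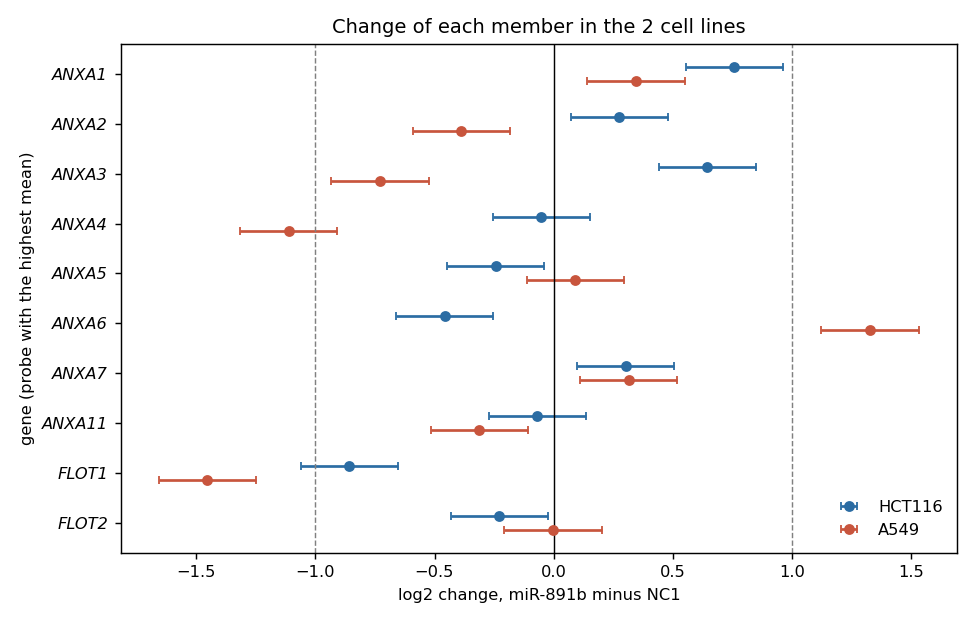
Log2 change, miR-891b minus NC1, of the brightest probe of each member in HCT116 (blue) and A549 (red). Points are 1 array against 1 array, bars are the scanner software's error of the difference (0.20 or 0.21), and dashed lines mark 2-fold. FLOT1 and ANXA4 lie beyond the lower line and ANXA6 beyond the upper line in A549, and no HCT116 point lies beyond either.

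Among the flotillins, FLOT1 was lower with miR-891b in both lines. On the NC1 and miR-891b arrays it read 4.19 and 3.33 in HCT116, and 3.92 and 2.47 in A549. Both miR-891b arrays were thus below both NC1 arrays. The change was -0.86 ± 0.20 in HCT116, 1.81-fold lower, and -1.45 ± 0.20 in A549, 2.74-fold lower. For reference, PSAT1 changed by -0.81 in HCT116 and -1.58 in A549. Processed signals of FLOT1 were 1001 and 574 in HCT116 and 1131 and 410 in A549. On A549 miR-891b, 13.3% of the dim spots around it had stray signal, so the FLOT1 spot there lay in an area of stray signal. The signals of these nearby spots had a median of 1.37, a 90th percentile of 8.24 and a highest value of 24.9, all below the FLOT1 signal. On HCT116 miR-891b the share of such spots was 0. With normexp background correction, quantile normalization, median centring or the authors' values, the change lay between -1.45 and -1.35 in A549 and between -0.86 and -0.77 in HCT116.

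FLOT2, the partner of FLOT1 in flotillin assemblies, showed no change of that size. Its brighter probe (chr17:27206723-27206782) read 3.83 and 3.60 in HCT116 and 3.84 and 3.84 in A549. The change was -0.23 ± 0.20 in HCT116 and -0.0023 ± 0.20 in A549. Median centring and the quantile settings turned the sign in A549, with values of up to 0.15. A dimmer FLOT2 probe (chr17:27209147-27209206) read -2.99 and -2.77 in HCT116 and -2.81 and -2.96 in A549, with opposite signs to the first probe in HCT116. The probes of FLOT2 thus shared no direction in HCT116.

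ANXA4, an annexin of secretory epithelia, differed most between the lines on the NC1 arrays among the brightest probes of the members. By that probe it was lower with miR-891b by 2-fold or more in A549 and changed within its error in HCT116. Its bright probe (chr2:70052749-70052808) read 4.37 and 4.32 in HCT116, and 7.41 and 6.29 in A549, so that both A549 arrays were above both HCT116 arrays. The change was -0.05 ± 0.20 in HCT116 and -1.11 ± 0.20 in A549, 2.16-fold lower. It was -0.92 in A549 with normexp and quantile normalization, -0.80 with quantile normalization alone and -1.05 with median centring, and it passed 2-fold only in the last of these. The mean over the ANXA4 probes gave -0.70. On A549 miR-891b, 19.9% of the nearby spots dim elsewhere were well above background. Their median signal was 1.39, their 90th percentile 53.8 and their highest 478, against 5822 for the ANXA4 spot. The part of stray signal in this value was not tested. A second ANXA4 probe (chr2:69871928-69871987), which lists no RefSeq transcript, was dim, at -1.62 and -2.02 in HCT116 and -1.90 and -2.18 in A549 (NC1 first). It changed by -0.40 ± 0.27 in HCT116 and -0.28 ± 0.24 in A549 and did not show the higher level in A549. On HCT116 miR-891b its processed signal was 14.1, and 20.7% of the dim spots around it had stray signal.

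ANXA6, the annexin with a doubled core, went in opposite directions in the lines. Its probe (chr5:150483134-150483193) read 2.08 and 1.62 in HCT116 and -0.45 and 0.88 in A549. All HCT116 values were above all A549 values, and the A549 NC1 array was the lowest. The change was -0.46 ± 0.20 in HCT116 and 1.33 ± 0.21 in A549, 2.51-fold higher. Its processed signals were low, at 232 and 175 in HCT116 and 54.9 and 137 in A549. Normexp with quantile normalization moved the A549 change to 0.73, below 2-fold, whereas quantile normalization alone gave 1.36 and median centring 1.39. No more than 4.37% of the nearby dim spots had stray signal on any array.

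ANXA3, like ANXA6, changed by more than 2 times its error in both lines, and it went the opposite way to ANXA6 in each. Its probe (chr4:79525495-79531210), whose genomic span crosses an intron, read 5.35 and 5.99 in HCT116 and 4.41 and 3.68 in A549. Both A549 values were below both HCT116 values. The change was 0.65 ± 0.20 in HCT116 and -0.73 ± 0.20 in A549, under 2-fold in each line. Across the scalings it stayed between 0.65 and 0.76 in HCT116 and between -0.73 and -0.54 in A549. On HCT116 miR-891b, 9.60% of nearby dim spots had stray signal, just under the limit used.

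ANXA2 binds S100A10 in a complex at the plasma membrane. Its bright probe (chr15:60639880-60641324, across an intron) read 8.44 and 8.71 in HCT116 and 9.24 and 8.86 in A549. The change was 0.28 ± 0.20 in HCT116 and -0.39 ± 0.20 in A549. The A549 sign did not hold across scalings, since normexp with quantile normalization gave 0.07 and quantile normalization alone gave a value at 0.00. The second probe (chr15:60639588-60639647) read 2.05, 2.31, 5.16 and 4.74 on the same arrays in the same order. Its changes, 0.26 and -0.42, were close to those of the first probe, but it put A549 above HCT116 by 3.11 on the NC1 arrays, where the first probe gave 0.81. ANXA2 has near-identical processed pseudogenes, so ANXA2 values are uncertain as to which copy they come from. The pseudogene probes of ANXA2P1 and ANXA2P3 changed by 0.40 and 0.60 in HCT116 and by -0.47 and -0.54 in A549, with the signs of ANXA2.

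ANXA1, a ligand of formyl peptide receptors that dampens inflammation, was higher with miR-891b in both lines, by less than 2-fold. Its probe (chr9:75785002-75785061) read 7.38 and 8.14 in HCT116 and 8.40 and 8.74 in A549. The change was 0.76 ± 0.20 in HCT116 and 0.35 ± 0.20 in A549. Quantile normalization raised the A549 change to 0.77 and normexp with it to 0.64. On HCT116 NC1, 16.4% of nearby dim spots had stray signal, with a highest value of 100.5 against 9138 for the ANXA1 spot.

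ANXA5, whose binding to phosphatidylserine is used to stain dying cells, read 6.25 and 6.01 in HCT116 and 6.49 and 6.58 in A549 (chr4:122589479-122589538). It changed by -0.24 ± 0.20 and 0.09 ± 0.20, of which the second is within the error, though quantile normalization, with or without normexp, gave 0.41 there. ANXA7, also called synexin, read 4.70 and 5.01 in HCT116 and 4.77 and 5.08 in A549 with its bright probe (chr10:75135675-75135734). The changes were 0.30 ± 0.20 and 0.31 ± 0.20, and quantile normalization gave 0.34 and 0.54. Its other probe (chr10:75135312-75135371) gave 0.29 in HCT116 and 0.08 in A549, with levels of 2.04, 2.33, 2.70 and 2.78.

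ANXA11, an annexin with a long N-terminal tail that tethers RNA granules to lysosomes, was measured with 3 probes, and all 3 were lower with miR-891b in both lines. The bright probe (chr10:81915629-81917416, across an intron) read 5.10 and 5.03 in HCT116 and 5.62 and 5.31 in A549, with changes of -0.07 ± 0.20 and -0.31 ± 0.20. The probe with the seed match (chr10:81916165-81916224) read -1.33 and -1.45 in HCT116 and -2.03 and -2.54 in A549, with changes of -0.12 and -0.52. It lies inside the genomic span that the bright probe skips, so it is intronic to the transcript of that probe. The dimmest probe (chr10:81911196-81911255) holds no seed match and read -2.57, -2.71, -1.57 and -2.19, with changes of -0.13 and -0.62. The probe with the match thus lay between the other two in A549 and in HCT116. The bright probe's spot on A549 miR-891b had stray signal at 12.1% of nearby dim spots.

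**Figure D2:**
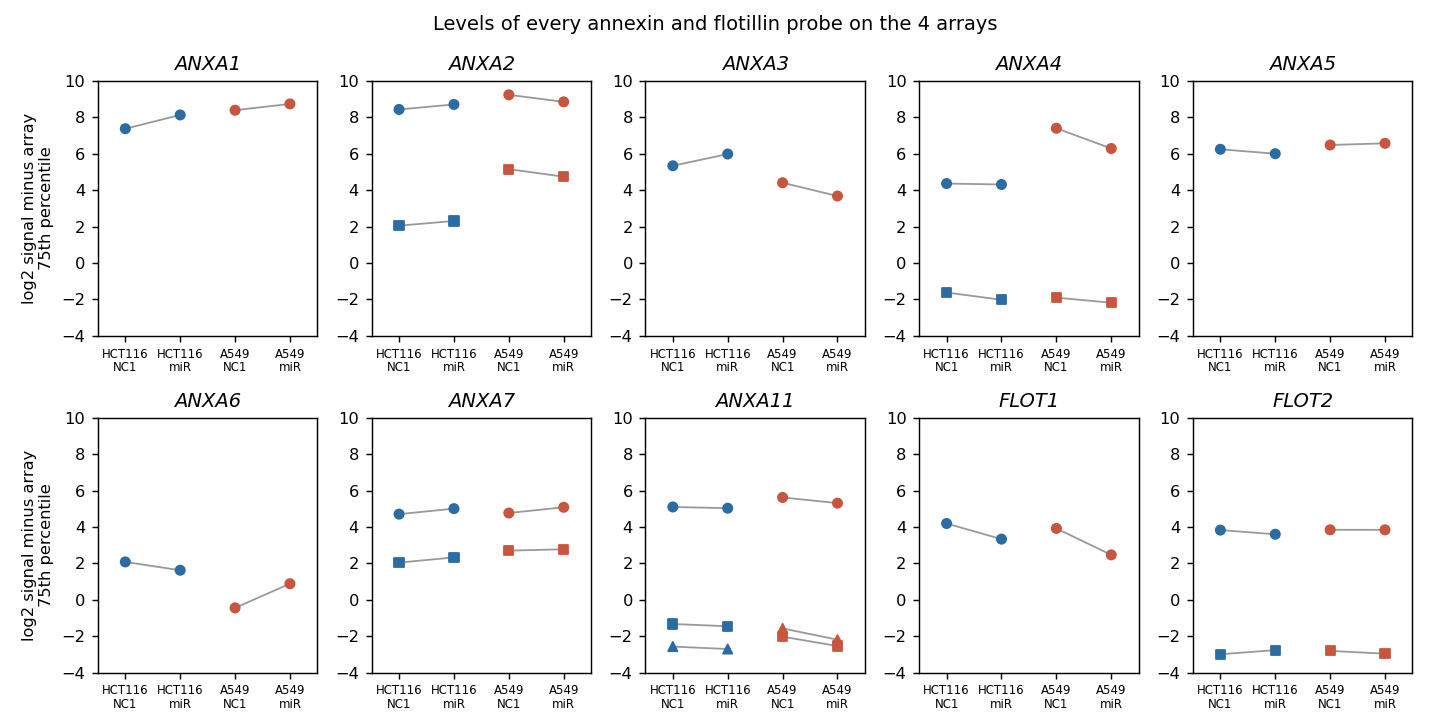
Level of each member probe, as log2 signal minus the array's 75th percentile, on the 4 arrays (HCT116 blue, A549 red; "miR" is miR-891b). Circles, squares and triangles are the probes of a gene from the highest mean level to the lowest, each point is 1 array, and lines join the arrays of a line. FLOT1 is lower on both miR-891b arrays, and ANXA3 and ANXA6 slope in opposite ways in the 2 lines.

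Members moved in different directions, both within a family and between lines. FLOT1, ANXA4, ANXA11 and FLOT2 were below 0 in both lines (4 of 10, beside 33.8% of 18063 genes well above background on all 4 arrays), although FLOT2 in A549 and ANXA4 and ANXA11 in HCT116 were within their error. ANXA1 and ANXA7 were above 0 in both (2 of 10, beside 21.1%). ANXA2, ANXA3, ANXA5 and ANXA6 had opposite signs (4 of 10, beside 45.1%). These shares were near those of all genes. Changes larger than 2 times their error were seen for 4 members in each line, namely ANXA1, ANXA3, ANXA6 and FLOT1 in HCT116 and ANXA3, ANXA4, ANXA6 and FLOT1 in A549. The share of all genes past that limit was not counted. The SD over all genes was 0.38 in HCT116 and 0.61 in A549, against errors of 0.20 or 0.21 for the members.

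The cell lines were the only repeat of the transfection, and an additive limma model with terms for cell line and for miR-891b was fitted to all 22711 genes well above background on 2 or more arrays. The miR-891b term reached a Benjamini-Hochberg adjusted p under 0.05 for 0 of 10 members and for 0 genes of all (0%). At an unadjusted p under 0.05, 1 of 10 members passed, beside 5.35% of all genes (1214). That member was FLOT1, with a limma estimate of -1.16 (SE 0.27), an unadjusted p of 0.0121 and an adjusted p of 0.793. FLOT1 was lower in 2 of 2 lines, and its adjusted p ranged from 0.398 to 0.836 over the alternative settings. The limma estimates were 0.55 (SE 0.25, adjusted p 0.793) for ANXA1, -0.58 (SE 0.35, adjusted p 0.793) for ANXA4 and 0.44 (SE 0.49, adjusted p 0.869) for ANXA6. The fit had 1 residual degree of freedom among 4 arrays. In simulated data it called 0 of 40 genes with a true 2-fold change, so the 0 calls do not show that the members were unchanged.

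Between the lines, the differences of the members were more spread (SD over the 10 genes of 1.42 on the NC1 and 1.12 on the miR-891b arrays) than with miR-891b (0.50 in HCT116 and 0.80 in A549). All genes showed the same contrast, with SDs of 1.22 and 1.23 between the lines and of 0.38 and 0.61 with miR-891b. On the NC1 arrays, ANXA4 (3.04 ± 0.20, 8.21-fold) and ANXA1 (1.02 ± 0.20, 2.02-fold) were higher in A549, and ANXA6 (-2.53 ± 0.21, 5.76-fold) was lower. These were 3 of 10 members, and 11.1% of 19219 genes were at least 2-fold higher and 16.2% at least 2-fold lower, or 27.3% in all. On the miR-891b arrays, ANXA4 was past 2-fold at 1.98 (0.91 as the mean over its probes), ANXA3 was lower in A549 by 2.31 on the log2 scale, and ANXA1 and ANXA6 were at 0.61 and -0.74. That made 2 of 10 members, beside 11.4% higher and 20.7% lower of 18576 genes, or 32.1% in all. In the same limma model, the cell line term passed an adjusted p of 0.05 for 2 of 10 members, beside 31.9% of all genes. They were ANXA4 (2.51, SE 0.35, limma adjusted p 0.0117) and ANXA3 (-1.62, SE 0.41, limma adjusted p 0.0481). ANXA4 passed in each of its 8 settings. The ANXA3 call was lost in 4 of 8 alternatives, with limma adjusted p-values of 0.103 after normexp with quantile normalization, 0.0627 after quantile normalization, 0.0545 after median centring and 0.0613 with the authors' values. ANXA1, at a limma adjusted p of 0.0769, passed in the former pair (0.0211 and 0.0248). ANXA6, at 0.0725, passed without a filter on dim probes and with the filter on all 4 arrays (limma adjusted p 0.0215 and 0.0432). ANXA2 passed after both quantile settings and with the mean over probes (limma adjusted p 0.032, 0.0458 and 0.0195), and ANXA11 after normexp with quantile normalization (limma adjusted p 0.0463). Each of these differences is also one between slides.

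**Figure D3:**
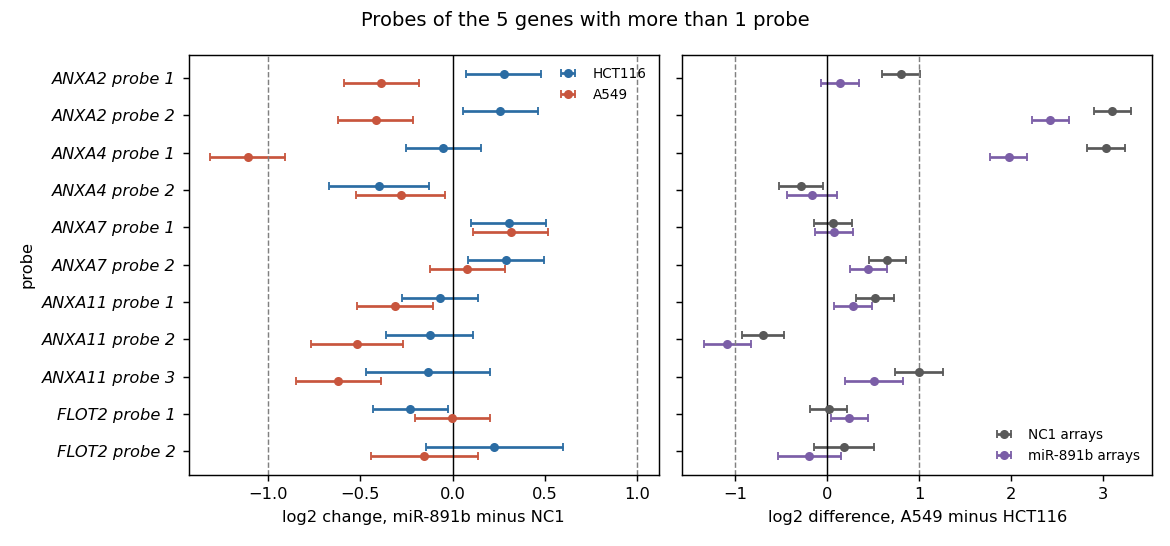
Log2 differences for the 11 probes of the 5 members with more than 1 probe. The left panel gives miR-891b minus NC1 in HCT116 (blue) and A549 (red), the right panel A549 minus HCT116 on the NC1 (grey) and miR-891b arrays (purple), with the scanner software's error as bars and 2-fold as dashed lines. Probes of ANXA2, ANXA4 and ANXA11 lie further apart in the right panel than in the left.

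Of the 5 members with more than 1 probe, 0 had probes of opposite sign for the A549 change and 1, FLOT2, did for HCT116. For A549 minus HCT116, 2 of these genes (ANXA4 and ANXA11) had probes of opposite sign on the NC1 arrays, and 3 (also FLOT2) did on the miR-891b arrays. The largest span was that of ANXA4 on the NC1 arrays, from -0.28 to 3.04. For ANXA11 it ran from -0.70 for the intronic probe to 1.00.

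Of the other annexins, ANXA8L1 was measured by a probe whose transcripts belong to ANXA8 and ANXA8L1, and the copies cannot be told apart. Its level was -2.37 and -1.74 in HCT116 and 4.51 and 1.68 in A549 with NC1 and miR-891b, a change of 0.63 in HCT116 and -2.83 in A549. ANXA9 changed by -1.43 in HCT116 and -0.80 in A549. With levels of 2.86, 2.70, 0.64 and 1.98, ANXA10 had a pattern like that of ANXA6, with a change of -0.15 in HCT116 and 1.34 in A549. ANXA13 was not well above background on either HCT116 array, was at least 350-fold higher on A549 NC1 than on HCT116 NC1, and changed by -0.21 in A549, with a sign that turned under another scaling. So 2 of these 4 genes passed 2-fold in A549 (1 lower, 1 higher), beside 9.58% of all genes, and 1 of the 3 measured in HCT116 did, beside 2%. The HCT116 call, ANXA9, was lost after normexp with quantile normalization, at -0.70.

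Of 10 listed partners and receptors of annexins, 8 were measured in each line. In both lines 0 of 8 passed 2-fold, beside 2% of all genes in HCT116 and 9.58% in A549. These counts were near the shares of all genes. The medians of the list were 0.04 in HCT116 and -0.02 in A549. Of the receptors that ANXA1 acts on, FPR1 was well above background on all 4 arrays, and FPR2 and FPR3 were not. S100A10, the partner of ANXA2, changed by 0.51 in HCT116 and -0.42 in A549, the signs of ANXA2 in each line, though in A549 the value reached 0.00 under another scaling. S100A6, a partner of several annexins, changed by 0.28 and -0.39. The penta-EF-hand proteins PDCD6, which binds ANXA7 and ANXA11, and SRI, which binds ANXA7, changed by -0.12 and -0.45 in HCT116 and by 0.55 and 0.08 in A549. The sign of PDCD6 in HCT116 turned under another scaling.

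Relatives of the flotillins, which share the SPFH domain, mostly had changes below 0 with miR-891b. Several of these changes were within their error, among them STOML2, PHB and PHB2 in HCT116 (error 0.20 each). Of 8 listed relatives, 7 were measured in each line. Past 2-fold were 0 of 7, beside 2% of all genes in HCT116 and 9.58% in A549, and 6 of 7 were below 0 in each line. Of all genes, 10595 of 19105 were below 0 in HCT116 and 11864 of 21337 in A549. Their medians were -0.15 in HCT116 and -0.24 in A549, beside -0.04 and -0.06 over all genes. Under each other scaling 5 or 6 of the 7 were below 0, and the A549 median came to -0.09 after normexp with quantile normalization and -0.12 after quantile normalization alone. The mitochondrial members STOML2, PHB and PHB2 changed by -0.15, -0.09 and -0.20 in HCT116 and by -0.52, -0.43 and -0.41 in A549. STOML1, a stomatin-like protein, changed by -0.39 and -0.24. The change of FLOT1 was below that of each measured relative in both lines.

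Caveolae, the other class of lipid microdomain, were listed with 9 genes. In A549, 1 of 9 measured genes passed 2-fold, MURC, which was higher by 1.27, and in HCT116 0 of 8 did. Of all genes, 9.58% passed in A549 and 2% in HCT116. After normexp with quantile normalization MURC was at 0.18 in A549, short of 2-fold. The caveolins CAV1 and CAV3 changed by -0.36 and -0.94 in HCT116 and by -0.50 and -0.95 in A549, and CAV3 came to -0.28 and -0.31 after normexp with quantile normalization. PACSIN2, which shapes caveolar necks, changed by -0.24 and -0.56. Among 4 flotillin partners 0 passed 2-fold in either line, beside the same shares of all genes. The kinase FYN was at -0.76 in HCT116 and -0.19 in A549 and the kinase SRC at 0.04 and -0.30. CTNND1, the p120 catenin, changed by -0.36 and -0.28. The ubiquitin ligase CBL was at -0.09 and -0.0030, and both signs turned under another scaling.

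Of 10 genes for membrane repair, 8 were measured in A549 and 9 in HCT116. In A549, PDCD6IP (ALIX, which joins the ESCRT machinery in repair and in vesicle budding) was lower by 1.12 on the log2 scale, with a change of -0.33 in HCT116. After normexp with quantile normalization it was no longer past 2-fold, at -0.87, and the other PDCD6IP probes gave -0.34 and -0.48 in A549 and 0.22 and 0.01 in HCT116. SMPD1, the acid sphingomyelinase, was higher by 1.88, with a change of 0.30 in HCT116. The calpains CAPN1 and CAPN2 changed by -0.18 and 0.42 in HCT116 and by 0.58 and 0.02 in A549, under 2-fold. In the limma model the miR-891b term passed an adjusted p of 0.05 for 0 of the 43 fitted genes of these lists, and at an unadjusted p under 0.05 for 3 of them, where 5.35% of all genes passed.

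**Figure D4:**
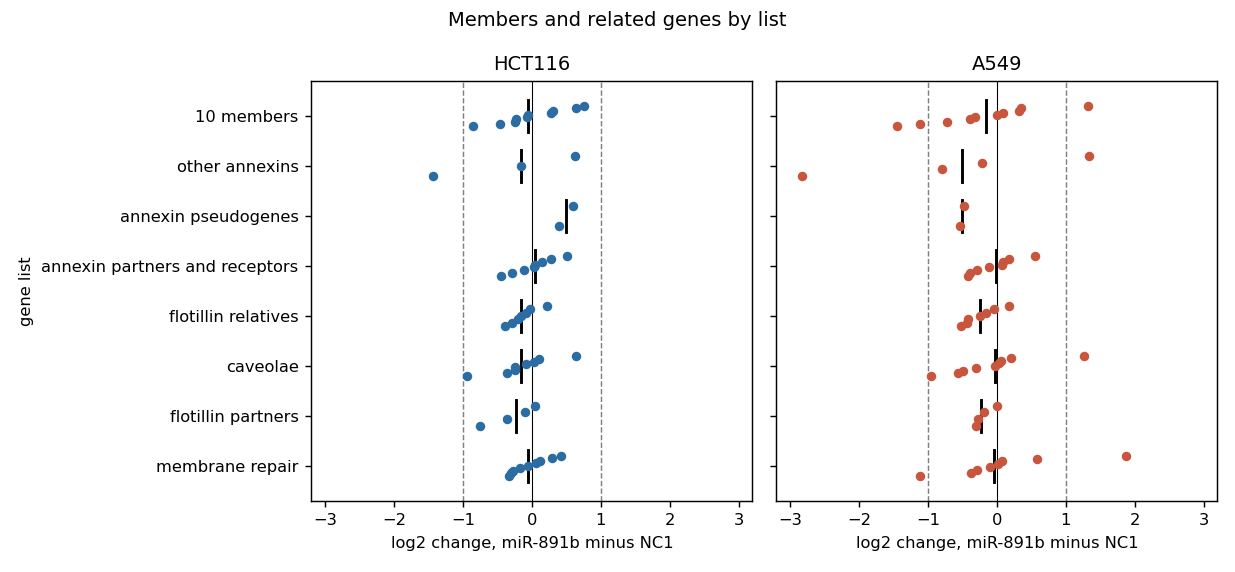
Log2 change, miR-891b minus NC1, of the members and of each list of related genes in HCT116 (left) and A549 (right). Each point is 1 gene by its brightest probe where it was well above background on both arrays, black bars are list medians, and dashed lines mark 2-fold. In A549 the points beyond 2-fold are 3 members, the other annexins ANXA8L1 (-2.83) and ANXA10, the caveolae gene MURC, and PDCD6IP and SMPD1 (1.88).

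The genes with the pattern most like FLOT1 were taken as those with the smallest distance over the 4 arrays, after each gene was centred on its mean, among 18062 other genes well above background on all 4. They were SH3BP4 (distance 0.20; changes of -0.59 in HCT116 and -1.48 in A549), FAM27E2 (0.22; -0.93 and -1.46), VAMP7 (0.24; -0.65 and -1.51), ERO1L (0.25; -0.67 and -1.74) and SNRK (0.27; -0.97 and -1.11). VAMP7 is a membrane fusion protein of late endosomes and ERO1L an oxidase of the endoplasmic reticulum. Distances over 4 arrays of 2 transfections share all their libraries and are a description.

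The nearest genes to FLOT1 in RefSeq order, picked after values had been seen, were also below 0. MDC1 changed by -0.32 in HCT116 and -0.70 in A549, TUBB by -0.04 and -0.90, IER3 by -0.33 and -0.86, and DDR1 by -0.67 and -0.50. FLOT1 had the largest change of the 5 genes in each line.

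**Figure D5:**
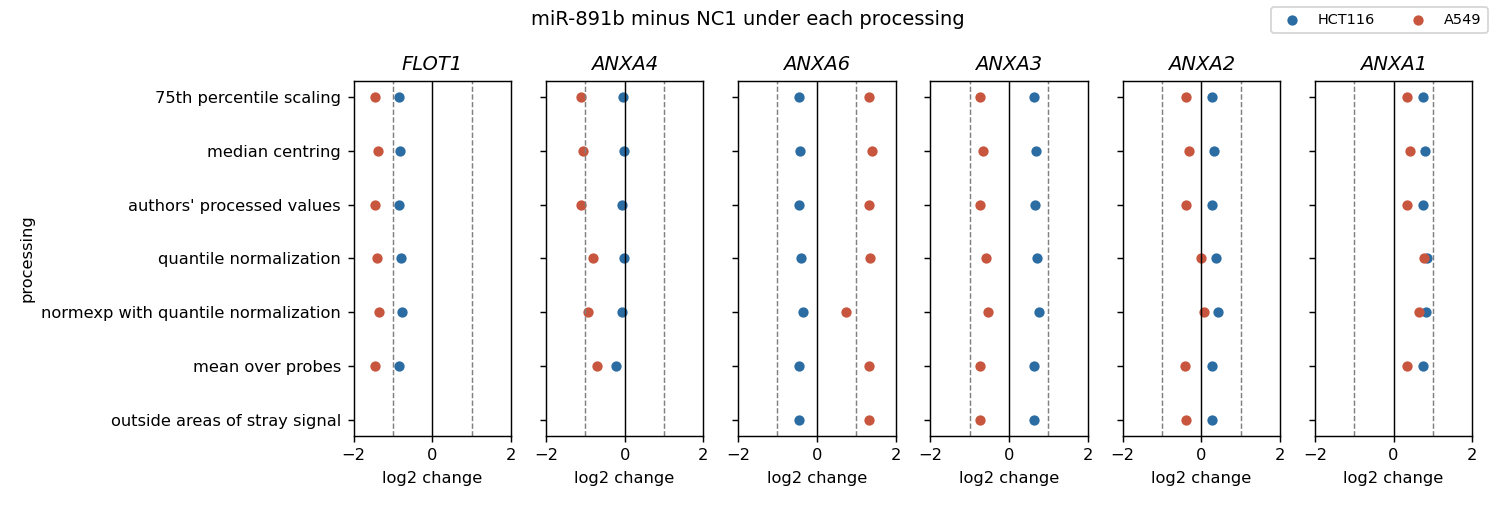
Log2 change, miR-891b minus NC1, of 6 members under each processing in HCT116 (blue) and A549 (red), with 2-fold as dashed lines. The change of FLOT1 in A549 lies beyond 2-fold in each processing that kept its probe, ANXA6 is at 0.73 after normexp, and FLOT1, ANXA4 and ANXA1 have no point outside areas of stray signal because no probe of theirs was left.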

How the data were processed

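The deposited scanner files hold intensity values of 1-colour Agilent arrays on a linear scale, quantified with Feature Extraction 11.5.1.1 per the file headers and the submitters' processing notes, with probe positions on hg19. The authors' deposited value table holds log2 values that equalled the log2 signal minus the array's 75th percentile with median absolute differences of at most 0.0069 on any array and a largest one of 0.11. Its column medians were -3.80, -3.60, -3.71 and -3.68, and it served as an alternative.

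Samples were grouped by title. Outlier-marked spots were dropped, and log2 of the processed signal was scaled by each array's 75th percentile over gene probes (with NC1 and miR-891b, signals of 54.9 and 57.0 in HCT116 and 74.8 and 74.2 in A549). The brightest probe by mean level stood for a gene, and a gene was measured in a comparison where both arrays had that probe well above background. The number of arrays limits the precision. The additive model used limma 3.58.1 in R 4.3.3, with Benjamini-Hochberg adjustment, and other values used Python 3.11.15 with numpy 2.4.6, pandas 2.3.3 and matplotlib 3.10.9. The fit was tested on simulated data with a known change shared by both lines. At an adjusted p under 0.05 its miR-891b term called 0 of 40 genes with a log2 change of 1. It called 1 of 40 at 2 and 34 of 40 at 3, and 8 unchanged genes. Stray signal was scored from gene spots up to 10 rows and 10 columns away that had no signal above background elsewhere, with a limit of 10% of them well above it, and 8635 probes were left out under that alternative.

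The members, gene lists and rules were chosen with earlier results of these data known. All members were named, with the 4 genes of each list that had the largest change in either line, and the 5 genes nearest in pattern to the member with the largest change. Some items that these lists held are not reported here and enter no list count. ANXA8, ANXA8L2 and ANXA2P2 were not found under those names. The RefSeq table (GRCh38.p14) gave names and gene order only, and all 10 members matched. Protein sequences were not used here. The alternatives were normexp (offset 50) with quantile normalization, quantile normalization, centring on the median, the authors' values, no filter on dim probes, a filter on all 4 arrays, the mean over probes, leaving out areas of stray signal, and thresholds of 1.5-fold and 3-fold. The cell line term of the model was added after the data were seen.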

Additional observations from a re-analysis of the deposited data

Results flagged for a closer look

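Some genes changed in opposite directions with miR-891b in the lines, with 1 array on each side, and these differences between lines were not tested. The values are the A549 change minus the HCT116 change in log2 units. Among the members, this was 1.79 for ANXA6, -1.37 for ANXA3, -0.66 for ANXA2 and 0.33 for ANXA5, each with an error of 0.29 from the scanner software's signal errors. For other annexins and the pseudogenes, ANXA8L1 gave -3.46, ANXA10 gave 1.49, ANXA2P3 gave -1.14 and ANXA2P1 gave -0.87. Of the annexin partners, S100A10 gave -0.93, S100A6 gave -0.67, PDCD6 gave 0.67 and SRI gave 0.53. The flotillin partner SRC gave -0.35, and the calpain gene CAPN1 gave 0.76. These genes are listed by sign, whatever the size of the change. Some changes were within their error, namely ANXA5 and SRI in A549 and ANXA10, PDCD6, SRC and CAPN1 in HCT116. Under another scaling the sign turned for ANXA2 and S100A10 in A549 and for PDCD6 in HCT116. The HCT116 change of ANXA8L1, from signals of 10.6 and 17.0, came to 0.09 under another scaling. Opposite signs were found for 45.1% of 18063 genes well above background on all 4 arrays.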

How the results depend on the processing

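The labels give no replicate numbers to pair arrays by, and the cell line term of the additive model, which pairs the arrays of a line, is the only block. The count of members past 2-fold in A549 was 3, and it was 1 after normexp with quantile normalization (3.59% of all genes), 1 of 7 outside areas of stray signal (9.49%), where FLOT1, ANXA4 and ANXA1 had no probe left, and 0 at 3-fold (2.58%). In HCT116 it was 0, and 3 at 1.5-fold (9.56% of all genes). Between the lines on the NC1 arrays it was 3, with 4 after normexp with quantile normalization (13.3% of all genes), 1 outside areas of stray signal (27.3%) and 5 at 1.5-fold (48.6%). On the miR-891b arrays it was 2, with 4 after normexp with quantile normalization (16.9%), 4 after quantile normalization (31.2%) and 5 at 1.5-fold (54.1%). These scalings, and median centring, moved the median of all genes in that comparison by 0.16, 0.11 and 0.11. For the cell line term of the limma model the count was 2 (31.9% of all genes). It was 4 after normexp with quantile normalization and 1 each after median centring, with the authors' values and outside areas of stray signal. The share of all genes for this term was not counted under these alternatives, so these counts cannot be set against it. Other than fewer probes outside areas of stray signal and the thresholds themselves, the cause of the differing counts was not tested. Over the members, 43 alternative counts, the 4 after normexp on the NC1 arrays among them, were within 1.5 times of those reported, 6 were above and 7 below. The 43 include counts of 0 that stayed at 0. They also include the 2-fold counts with other filters on dim probes, which could not differ because all member probes passed on all 4 arrays. No member difference reported as past 2-fold turned its sign under any setting. Outside areas of stray signal, ANXA11, left with its intronic probe, went from 0.28 to -1.09 between the lines on the miR-891b arrays.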
